A study of Mus musculus with 200 samples.

Results

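The D-type cyclins Ccnd1, Ccnd2 and Ccnd3, the cyclin-dependent kinase inhibitors Cdkn1a (p21), Cdkn1b (p27) and Cdkn1c (p57), the p53 regulator Mdm2, and the proliferation genes Mki67 and Top2a were followed in mouse brain after a closed head injury (CHI). These 9 genes were taken by name from a count table of 56941 genes, and each name matched 1 row. The rule names them by their function and uses no measured value, but the members were chosen with earlier results of these data known. RNA was sequenced from 200 mice, 67 of them with sham surgery and the rest with CHI, collected 9, 24 or 72 h later. C57BL/6J gave 61 mice (43 CHI and 18 sham), the strain labelled IL-1R1 gKO 55 (37 and 18), IL-1R1 eRestore 50 (33 and 17) and IL-1R1 nRestore 34 (20 and 14). CHI was a single impact on the closed skull under anaesthesia, and sham mice had the anaesthesia and scalp incision without the impact. The mice were 98 males and 102 females aged 3.3 to 7.67 months, and all IL-1R1 nRestore mice at 72 h were labelled male. The 9 h groups held 15 CHI and 6 sham C57BL/6J mice, 13 and 6 IL-1R1 gKO mice, 12 and 6 IL-1R1 eRestore mice, and 6 and 4 IL-1R1 nRestore mice. In the same strain order, the 24 h groups held 14 and 6, 12 and 6, 9 and 5, and 8 and 5 mice. The 72 h groups held 14 and 6, 12 and 6, 12 and 6, and 6 and 5 mice.

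IL-1R1 is the type 1 receptor for interleukin-1, a cytokine of the early injury response. The constructs behind the gKO, eRestore and nRestore labels, and the cells in which they act, are not given in the sources used here. The receptor gene Il1r1 was not lower in the mice labelled IL-1R1 gKO (6.09 to 17.8 CPM, counts scaled by library totals after TMM adjustment, median 9.93) than in C57BL/6J (2.95 to 13.0 CPM, median 5.21). The median was 7.77 CPM in IL-1R1 eRestore (5.20 to 16.7) and 9.39 CPM in IL-1R1 nRestore (5.94 to 14.2). Each IL-1R1 strain thus had a higher median than C57BL/6J, with overlapping ranges. The gene-level counts differed by label but showed no loss of Il1r1, and these mice are named by their label throughout. In 2 mice the sex-linked genes went against the labelled sex. The total count per mouse ran from 14857985 to 57355676, with a median of 20258936. Markers of neurons, oligodendrocytes and astrocytes (6 genes each) were all above 0 in every group of this brain tissue. Choroid plexus markers summed to over 500 TPM, a length-corrected level, in 4 CHI and 6 sham mice at 9 h, 5 and 3 at 24 h, and 2 and 0 at 72 h, and 1 IL-1R1 gKO CHI mouse at 9 h (replicate 9) had leukocyte markers at 65.8 TPM against at most 10.1 TPM elsewhere.

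A cell enters the cell cycle from G1 when D-type cyclins activate the kinases CDK4 and CDK6, which phosphorylate the retinoblastoma protein and release E2F factors. The inhibitors p21, p27 and p57 bind cyclin-kinase complexes and hold the cycle back. The p21 gene Cdkn1a is the classic transcriptional target of p53, and it also responds to other stress signals and to glucocorticoids. Mdm2, another p53 target, ubiquitinates p53 and so closes a feedback loop. Mki67 encodes Ki-67, present in cycling cells and lost in quiescence, and Top2a encodes the topoisomerase that untangles DNA in G2 and mitosis. In the adult brain, neurons have left the cycle, and the dividing cells are mainly glial precursors, neural progenitors of the germinal niches, and, after injury, microglia and some astrocytes.

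Per length, the members spanned a wide range of levels in sham brain. Cdkn1b was highest at 41.4 ± 4.44 TPM (SD, n = 67 for every value here), followed by Mdm2 at 38.7 ± 4.54 TPM, Ccnd1 at 25.7 ± 4.01 TPM and Ccnd2 at 25.1 ± 3.86 TPM. Cdkn1a stood at 17.6 ± 5.53 TPM, Ccnd3 at 16.6 ± 3.18 TPM and Cdkn1c at 10.4 ± 3.63 TPM. The proliferation genes were lowest, with Top2a at 0.708 ± 0.436 TPM and Mki67 at 0.264 ± 0.179 TPM. Within this order, Cdkn1b and Mdm2, Ccnd1 and Ccnd2, and Cdkn1a and Ccnd3 differed by less than 1 SD. Across all mice Top2a rested on 6 to 252 counts per mouse (median 27) and Mki67 on a median of 28, so single-mouse values of these genes are imprecise.

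Cdkn1a had the largest response to CHI among the members, and it came at 9 h. In C57BL/6J brain the 6 sham mice had 16.5 to 24.9 CPM (median 20.6) and the 15 CHI mice 51.3 to 128.9 CPM (median 69.5). Every CHI mouse was above every sham mouse. The fitted rise was 3.83-fold, with a log2 fold change of 1.94 ± 0.20 (SE; edgeR adjusted p = 3.16e-06), in a comparison where 14.1% of all genes tested passed the adjusted threshold of 0.05, 7.05% higher and 7% lower. Here, as in every comparison of whole tissue, a change in the number of cells of a type and a change in RNA per cell cannot be told apart.

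In the other strains the CHI mice spread widely at 9 h. In mice labelled IL-1R1 gKO, Cdkn1a ran from 17.3 to 82.98 CPM after CHI (median 25.9, n = 13) against 12.2 to 28.0 CPM in sham mice (median 21.4, n = 6). In IL-1R1 eRestore it ran from 15.0 to 52.8 CPM (median 31.5, n = 12) against 11.7 to 27.8 CPM (median 18.3, n = 6). In IL-1R1 nRestore the 6 CHI mice had 14.7 to 85.3 CPM (median 21.3), and the 4 sham mice had 13.9, 13.4, 12.3 and 10.7 CPM. The groups overlapped in IL-1R1 gKO and IL-1R1 eRestore and did not overlap in IL-1R1 nRestore, where the highest CHI mouse (replicate 2) stood far above the remaining 5, which lay between 14.7 and 24.1 CPM. The log2 fold changes did not pass the threshold, at 0.71 ± 0.34 in IL-1R1 gKO (edgeR adjusted p = 0.479, with 0.199% of genes called and 0.0723% higher), 0.66 ± 0.26 in IL-1R1 eRestore (edgeR adjusted p = 0.125, with 7.34% called, 4.1% higher and 3.24% lower) and 1.49 ± 0.66 in IL-1R1 nRestore (edgeR adjusted p = 0.412, with 0.608% called). In IL-1R1 gKO and IL-1R1 nRestore, 0 of 9 members were called at 9 h by edgeR, with 2 in each at an unadjusted p under 0.05, and DESeq2 called 0 and 1 (Ccnd1).

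**Figure D1:**
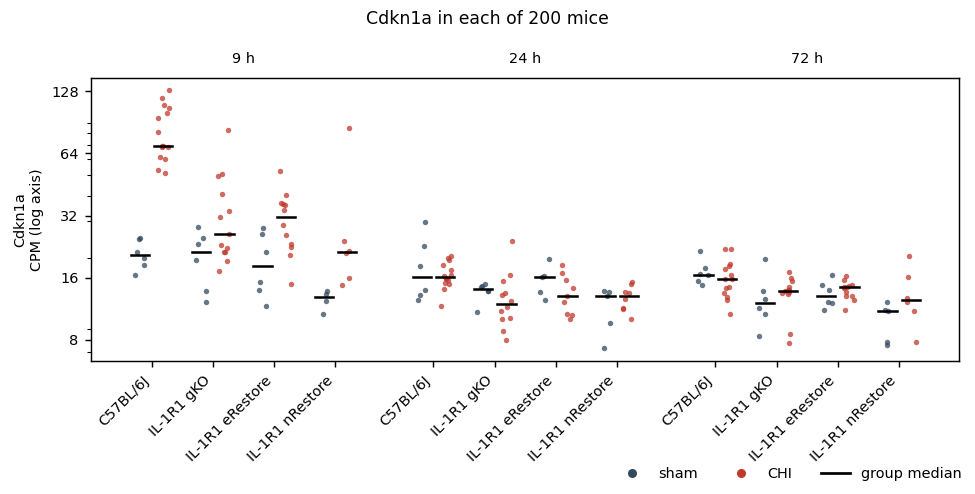
Cdkn1a level in every mouse (CPM, vertical log axis) by strain and by hours after surgery; red points are CHI mice, dark blue points sham mice, and black bars group medians. At 9 h all 15 C57BL/6J CHI mice (51.3 to 128.9 CPM) sit above the 6 sham mice (16.5 to 24.9 CPM), and 1 CHI mouse in each of the other strains reaches that range; at 24 and 72 h the colours overlap.

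Of the 46 CHI mice at 9 h, 34 had more Cdkn1a than every sham mouse of their own strain, and all 15 C57BL/6J mice were among them. Of the 31 CHI mice of the IL-1R1 strains, 3 reached the lowest C57BL/6J CHI value of 51.3 CPM, 1 in each strain. With the 4 strains fitted together the log2 fold change was 1.14 ± 0.17 (2.20-fold, edgeR adjusted p = 9.41e-07, with 23.9% of genes called), on the same mice as the separate fits. The response was smaller than in C57BL/6J by 1.22 ± 0.41 on the log2 scale in IL-1R1 gKO, by 1.30 ± 0.41 in IL-1R1 eRestore and by 0.69 ± 0.48 in IL-1R1 nRestore. None of these differences passed the threshold (edgeR adjusted p = 0.512, 0.244 and 0.967, with 0%, 0.0107% and 0.00534% of genes called), so a difference between strains in the Cdkn1a response was not established. The 9 h mice came from 3 labelled experiments, and within them the log2 fold change was 1.14 in eIL-1-76 (edgeR adjusted p = 0.00235), 0.96 in eIL-1-80 (edgeR adjusted p = 0.0680) and 1.42 in TM-2-33 (edgeR adjusted p = 0.0989). Without C57BL/6J it was 0.83 (edgeR adjusted p = 0.00549). Beside this result, erythroid markers summed to 167.7 TPM (median, 3.91 to 1385) in CHI and 24.6 TPM (3.16 to 764) in sham mice at 9 h, and choroid plexus markers to 27.0 TPM (5.20 to 2535) and 51.0 TPM (10.4 to 6308). Without the mice over 500 TPM in choroid plexus markers, Cdkn1a was still called, at 0.99 over the 4 strains (edgeR adjusted p = 0.000399) and 1.88 in C57BL/6J (edgeR adjusted p = 9.17e-05). The part of the erythroid markers was not tested.

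At 24 h no rise of Cdkn1a was called, with a pooled mean of 14.2 CPM after CHI and 14.9 CPM in sham mice (log2 fold change -0.23 ± 0.08, edgeR adjusted p = 0.144, with 1.48% of genes called). At 72 h the means were 14.4 and 13.5 CPM (0.08 ± 0.08, edgeR adjusted p = 0.902, with 0.706% called). The 9 h effect was larger than the 24 h effect by 1.34 on the log2 scale (edgeR adjusted p = 1.05e-10, with 9.63% of genes called in this test of the difference) and larger than the 72 h effect by 1.06 (edgeR adjusted p = 1.04e-07, with 11.8% called). Within strains at 24 h, IL-1R1 gKO and IL-1R1 eRestore each had -0.45 ± 0.13 and IL-1R1 nRestore had 0.34 ± 0.16, none past the threshold.

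The sequence upstream of Cdkn1a is shown because p53 binds DNA through paired CATG cores, and Cdkn1a was the member that responded most. The gene lies at chr17:29309936-29319701 on the plus strand of GRCm39. The RefSeq promoter table, on the GRCm38.p6 build, gave 250 bases before the start for 6 of the 9 members and lacked Ccnd1, Ccnd2 and Cdkn1c. A pair of CATG cores with 6 free bases between them, which reads alike on both strands, occurred 1 time, 48 bases before the start, in the first of 2 Cdkn1a windows, chr17:29090729-29090978, plus strand, where capitals mark the match:
Cdkn1a: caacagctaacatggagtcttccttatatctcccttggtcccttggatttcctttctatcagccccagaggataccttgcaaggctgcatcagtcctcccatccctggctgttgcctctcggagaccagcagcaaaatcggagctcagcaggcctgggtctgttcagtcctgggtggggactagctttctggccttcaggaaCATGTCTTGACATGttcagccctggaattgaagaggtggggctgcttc
This pair occurred in 0.49% of 32851 windows of the same length and in no window of Cdkn1b, Ccnd3, Mdm2, Mki67 or Top2a. The E2F letters TTCCCGCC (1.86% of windows) and the glucocorticoid response element (GNACA and TGTNC with 3 bases between them, 0.387%), searched on both strands, were in no window of the 6 members. A match of letters is a description of the sequence, not a binding site. Sequence outside these windows was not searched, so an absent match, as for Mdm2, holds for the 250 bases only.

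Mdm2, the other p53 target among the members, was not called at any time. Its pooled log2 fold change at 9 h was 0.03 ± 0.03 (edgeR adjusted p = 0.570), and in C57BL/6J, where Cdkn1a rose 3.83-fold, it was 0.02 ± 0.06 (edgeR adjusted p = 0.844). At 24 and 72 h the pooled values were -0.01 ± 0.03 and -0.04 ± 0.03. A further list of p53-responsive genes, chosen for function and including Trp53 itself, showed 6 genes higher and 2 lower of 21 tested at 9 h in the 4 strains, where 12% of all genes were called higher and 11.9% lower. Sesn1, a stress-induced sestrin, rose by 0.35 ± 0.05 (log2, edgeR adjusted p = 4.97e-07), and Pmaip1, which encodes the apoptosis inducer Noxa, rose by 0.66 ± 0.14 (edgeR adjusted p = 0.000166). Psrc1 rose by 0.34 ± 0.08, and outside the 4 smallest p-values Trp53inp1 rose by 0.29 ± 0.10, Sesn2 by 0.14 ± 0.05 and Trp53 by 0.11 ± 0.04. The stress kinase gene Plk3 fell by 0.31 on the log2 scale and the p53 inhibitor Mdm4 by 0.16. Named after their values were seen, the death genes Bax (-0.09 ± 0.08) and Fas (0.30 ± 0.17), and Ccng1 (0.05 ± 0.05), which encodes cyclin G1, did not pass in this pooled fit. The median log2 fold change over the list was 0.06, against -0.0026 over all genes tested. Without C57BL/6J, 2 genes of the list were higher and 1 lower, in a fit with fewer mice whose share of all genes called was not recorded. In C57BL/6J alone, 4 were higher and 3 lower of 21 (7.05% and 7% of all genes), with Sesn1 at 0.66 ± 0.08, Pmaip1 at 1.23 ± 0.17, Trp53inp1 at 0.78 ± 0.16 and the antiproliferative gene Btg2 at -0.82 ± 0.20. Outside the 4 smallest p-values, Fas was also called higher in C57BL/6J (0.91 ± 0.27, edgeR adjusted p = 0.0214), and Mdm4 and Plk3 were called lower.

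Cdkn1b and Cdkn1c, the other kinase inhibitors of this family, moved in opposite directions at 9 h, Cdkn1b only slightly. Cdkn1b, the p27 gene, rose by 0.11 ± 0.03 on the log2 scale over the 4 strains (edgeR adjusted p = 0.00642), with 16 of 46 CHI mice above every sham mouse of their own strain, and it was not called in any single strain. Within the 3 experiments the Cdkn1b value was 0.08 to 0.13, with edgeR adjusted p from 0.130 to 0.402. The call was also lost without C57BL/6J (0.10, edgeR adjusted p = 0.0524) and without IL-1R1 nRestore (0.09, edgeR adjusted p = 0.0563). Cdkn1c, the imprinted p57 gene, fell by 0.36 on the log2 scale (SE 0.11, edgeR adjusted p = 0.0141), with 18 of 46 CHI mice below every sham mouse of their strain. In IL-1R1 eRestore, where it was called alone (-0.80 ± 0.19, edgeR adjusted p = 0.0143), Cdkn1c ran from 4.05 to 6.82 CPM after CHI (median 4.79, n = 12) and from 5.41 to 17.5 CPM in sham mice (median 7.41, n = 6), and 9 of the 12 CHI mice were below all sham mice.

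The Cdkn1c result leaned on few animals. Without the sham mouse at 17.5 CPM (replicate 3), the IL-1R1 eRestore value was -0.51 (edgeR adjusted p = 0.0247). Without the mice over 500 TPM in choroid plexus markers, it was -0.46 (edgeR adjusted p = 0.0773) and the pooled value -0.25 (edgeR adjusted p = 0.0336). At 9 h over the 4 strains, 0 of 6 choroid plexus markers were higher after CHI and 6 were lower, where 12% of all genes were called higher and 11.9% lower. Without IL-1R1 eRestore the pooled value was -0.18 (edgeR adjusted p = 0.355), and without C57BL/6J it was -0.34 (edgeR adjusted p = 0.0594). Within experiments it was -0.57 in eIL-1-76 (edgeR adjusted p = 0.0546), -0.48 in eIL-1-80 (edgeR adjusted p = 0.0317) and 0.08 in TM-2-33 (edgeR adjusted p = 0.861), so the direction did not hold in the experiment that contained no C57BL/6J or IL-1R1 eRestore mice. Neither Cdkn1b nor Cdkn1c was called at 24 or 72 h in any strain or in the pooled fit. Of the kinase inhibitors outside this family, Cdkn2b, Cdkn2c, Cdkn2d and Cdkn3 were tested at 9 h over the 4 strains. By edgeR or DESeq2, 0 of 4 were called, with 0 at an unadjusted p under 0.05, where edgeR called 23.9% of all genes.

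Among the D-type cyclins, Ccnd2 fell and Ccnd1 rose at 9 h, while Ccnd3 did not pass the test. In C57BL/6J brain Ccnd2 ran from 48.3 to 65.6 CPM after CHI (median 55.3, n = 15) and from 70.4 to 86.7 CPM in sham mice (median 77.0, n = 6). All 15 CHI mice were below all 6 sham mice, and the log2 fold change was -0.50 ± 0.05 (edgeR adjusted p = 2.54e-07). In IL-1R1 gKO the ranges were 33.1 to 69.6 CPM (median 53.1) and 53.1 to 76.7 CPM (median 72.0), with a log2 fold change of -0.33 ± 0.09 (edgeR adjusted p = 0.152). In IL-1R1 eRestore they were 44.3 to 72.1 CPM (median 61.6) and 59.0 to 84.0 CPM (median 67.6), with -0.19 ± 0.08 (edgeR adjusted p = 0.116). In IL-1R1 nRestore the 6 CHI mice had 54.0 to 60.7 CPM (median 56.6) and the 4 sham mice 50.7, 55.0, 61.6 and 47.5 CPM, with 0.06 ± 0.08. Thus 26 of 46 CHI mice lay below every sham mouse of their own strain, and none of those in IL-1R1 nRestore did. The pooled log2 fold change was -0.29 ± 0.05 (edgeR adjusted p = 2.75e-06), and in TM-2-33, with IL-1R1 gKO and IL-1R1 nRestore mice, it was -0.14 (edgeR adjusted p = 0.515).

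The sham level of Ccnd2 was also lower in IL-1R1 nRestore. Sham IL-1R1 nRestore mice had less Ccnd2 than sham C57BL/6J mice by 0.42 on the log2 scale (SE 0.07, edgeR adjusted p = 3.63e-06, with 11.6% of genes called) and less Cdkn1a by 0.70 (SE 0.13, edgeR adjusted p = 0.000178), averaged over the 3 times. At 9 h all IL-1R1 nRestore mice came from the experiment TM-2-33, which held no C57BL/6J mice, so that strain and experiment cannot be told apart there. The 2 IL-1R1 gKO sham mice of TM-2-33 had 12.2 and 13.8 CPM of Cdkn1a, below the 19.5 to 28.0 CPM of the 4 in the other experiments. The Ccnd2 response to CHI at 9 h differed between IL-1R1 nRestore and C57BL/6J by 0.55 ± 0.14 on the log2 scale, which did not pass over all genes (edgeR adjusted p = 0.487).

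Ccnd1 had the opposite sign, and it was called in IL-1R1 eRestore and in the pooled fit. In C57BL/6J it ran from 38.6 to 56.0 CPM after CHI (median 44.8) and from 35.5 to 61.6 CPM in sham mice (median 45.6), with a log2 fold change of -0.02 ± 0.09. In IL-1R1 eRestore, 2 of 9 members were called, where 7.34% of all genes were called, 4.1% higher and 3.24% lower. The values of Ccnd1 there were 43.0 to 67.5 CPM (median 61.4) and 42.5 to 54.6 CPM (median 44.5). It rose by 0.33 ± 0.09 (edgeR adjusted p = 0.0295), with 9 of 12 CHI mice above all sham mice. The call was lost without sham replicate 1, 3 or 4 of this group (0.29 to 0.31, edgeR adjusted p from 0.0569 to 0.0914) and without the mice high in choroid plexus markers (0.33, edgeR adjusted p = 0.0954). IL-1R1 gKO had 0.28 ± 0.11 (edgeR adjusted p = 0.324), from 38.2 to 69.2 CPM (median 52.6) against 31.1 to 60.1 CPM (median 46.3). IL-1R1 nRestore had 0.42 ± 0.11 (edgeR adjusted p = 0.121), from 42.4 to 63.8 CPM (median 61.2) against 39.2, 36.6, 47.5 and 37.9 CPM in the sham mice. In all, 17 of 46 CHI mice were above every sham mouse of their own strain, and the pooled value was 0.23 ± 0.06 (edgeR adjusted p = 0.00114). It was 0.16 (edgeR adjusted p = 0.0623) without the mice high in choroid plexus markers and 0.08 (edgeR adjusted p = 0.578) in the experiment labelled eIL-1-76 alone. The differences of the 3 strains from C57BL/6J were 0.30 ± 0.14, 0.35 ± 0.14 and 0.52 ± 0.16 for gKO, eRestore and nRestore in turn, and none passed (edgeR adjusted p = 0.747, 0.418 and 0.650).

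In 2 strains the CHI mouse with the most Cdkn1a at 9 h had the least Ccnd1 of its group. The IL-1R1 gKO CHI mouse with the highest Cdkn1a of its group (82.98 CPM, replicate 10) had 38.2 CPM of Ccnd1 and 38.4 CPM of Ccnd2. The IL-1R1 nRestore mouse with 85.3 CPM of Cdkn1a (replicate 2) had 42.4 CPM of Ccnd1, where the remaining 5 CHI mice had 59.7 to 63.8 CPM. These animals were picked out after their values were seen.

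**Figure D2:**
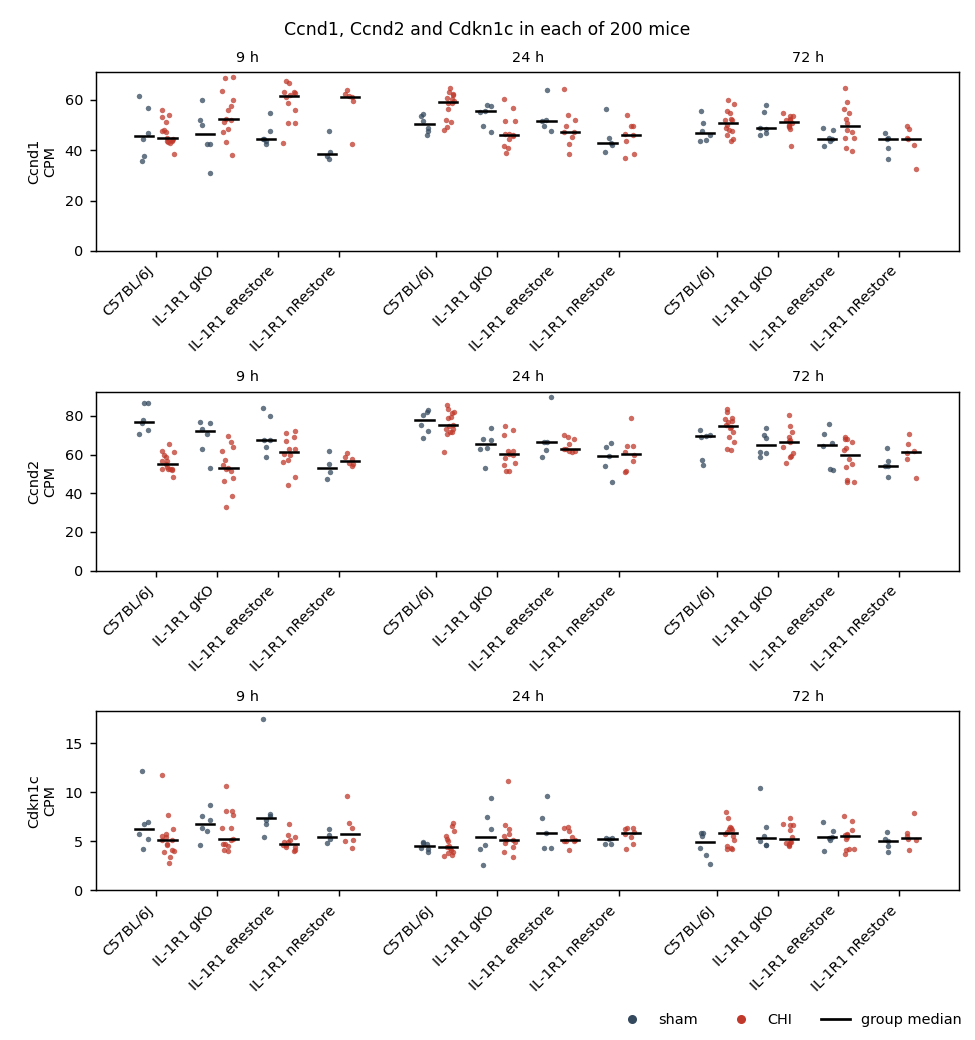
Ccnd1, Ccnd2 and Cdkn1c levels in every mouse (CPM, vertical axis) by strain and hours after surgery; red points are CHI mice, dark blue points sham mice, and black bars group medians. At 9 h the groups do not overlap for Ccnd2 of C57BL/6J (48.3 to 65.6 against 70.4 to 86.7 CPM), and Cdkn1c shows the single sham mouse at 17.5 CPM in IL-1R1 eRestore.

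Ccnd3 was not called for CHI at any time, with pooled log2 fold changes of 0.07 ± 0.06, -0.05 ± 0.05 and 0.09 ± 0.05 at 9, 24 and 72 h. For Ccnd1 the 9 h effect exceeded the 24 h effect by 0.34 (edgeR adjusted p = 0.000108) and the 72 h effect by 0.21 (edgeR adjusted p = 0.0191). For Ccnd2 the 9 h effect was lower than the effect at 24 h (-0.20, edgeR adjusted p = 0.0444) and at 72 h (-0.29, edgeR adjusted p = 0.000665). At 24 h, 0 of 9 members were called in the pooled fit by edgeR, with 1 (Cdkn1a) at an unadjusted p under 0.05, and DESeq2 called 0. In the single strains 0 of 36 member tests were called at 24 h and 0 of 36 at 72 h by edgeR, with 7 and 9 at an unadjusted p under 0.05, and DESeq2 called 0 at both times. At 24 h the share of all genes called was 0.404% in C57BL/6J, 0.0059% in IL-1R1 gKO, 0% in IL-1R1 eRestore and 0% in IL-1R1 nRestore. Ccnd1 at 24 h had 0.19 ± 0.06 in C57BL/6J, -0.19 ± 0.08 in IL-1R1 gKO, -0.23 ± 0.08 in IL-1R1 eRestore and 0.11 ± 0.10 in IL-1R1 nRestore, and none of these passed.

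**Figure D3:**
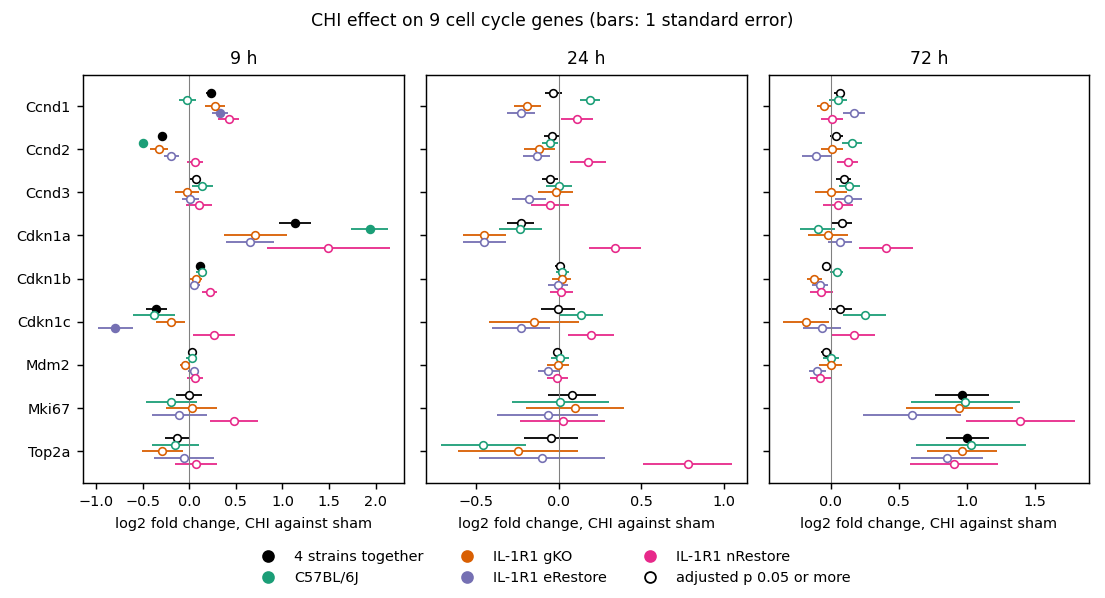
Log2 fold change of CHI against sham (horizontal axis) for the 9 members at 9, 24 and 72 h in each strain and in the 4 strains together; bars are 1 SE, filled points have an edgeR adjusted p under 0.05 and open points do not. Cdkn1a (1.14 pooled) stands out at 9 h, and Mki67 (0.97) and Top2a (1.01) at 72 h.

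The proliferation genes Mki67 and Top2a rose at 72 h in the pooled fit, and at neither earlier time were they called. In the 4 strains fitted together Top2a rose by 1.01 ± 0.16 on the log2 scale (2.01-fold, edgeR adjusted p = 2.87e-05) and Mki67 by 0.97 ± 0.20 (1.95-fold, edgeR adjusted p = 0.00254). These were the members called among 0.706% of all genes, 0.679% higher and 0.0272% lower. At 9 h the values were -0.14 ± 0.13 for Top2a and -0.01 ± 0.14 for Mki67, and at 24 h -0.04 ± 0.16 and 0.08 ± 0.14, none past the threshold.

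The direction was shared by the 4 strains at 72 h, but no strain passed alone. Top2a in C57BL/6J ran from 1.12 to 9.85 CPM after CHI (median 2.03, n = 14) and from 0.699 to 1.78 CPM in sham mice (median 1.27, n = 6). In IL-1R1 gKO the ranges were 1.45 to 3.56 CPM (median 2.24, n = 12) and 0.725 to 1.37 CPM (median 1.26, n = 6), which did not overlap. In IL-1R1 eRestore they were 0.780 to 2.58 CPM (median 1.35, n = 12) and 0.462 to 1.10 CPM (median 0.854, n = 6). IL-1R1 nRestore had 0.5679 to 2.56 CPM (median 2.16, n = 6) after CHI, and its 5 sham mice had 0.784, 1.12, 1.31, 0.585 and 1.13 CPM. In 3 strains the groups thus overlapped, mostly at the low end of the CHI mice. The log2 fold changes were 1.03 ± 0.41, 0.96 ± 0.26, 0.86 ± 0.27 and 0.91 ± 0.33 in C57BL/6J and then in gKO, eRestore and nRestore. In these 4 comparisons 0%, 0%, 0.00605% and 0.0121% of all genes were called, the last with 0.00606% higher and 0.00606% lower.

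Mki67 gave the same picture with more overlap. In C57BL/6J it ran from 0.798 to 6.02 CPM after CHI (median 1.85) and from 0.676 to 1.81 CPM in sham mice (median 1.14). In IL-1R1 gKO it ran from 1.06 to 3.94 CPM (median 2.13) and from 0.335 to 2.16 CPM (median 1.23). In IL-1R1 eRestore it ran from 0.793 to 3.83 CPM (median 1.54) and from 0.461 to 2.02 CPM (median 1.21). In every strain the CHI median was above the sham median and the ranges overlapped. In IL-1R1 nRestore the CHI mice had 0.981 to 4.77 CPM (median 2.20) and the sham mice 0.627, 1.24, 1.75, 0.791 and 0.475 CPM. The log2 fold changes in the same strain order were 0.99 ± 0.40, 0.94 ± 0.39, 0.60 ± 0.36 and 1.39 ± 0.40, with edgeR adjusted p between 0.785 and 1 for both genes over the 4 strains.

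**Figure D4:**
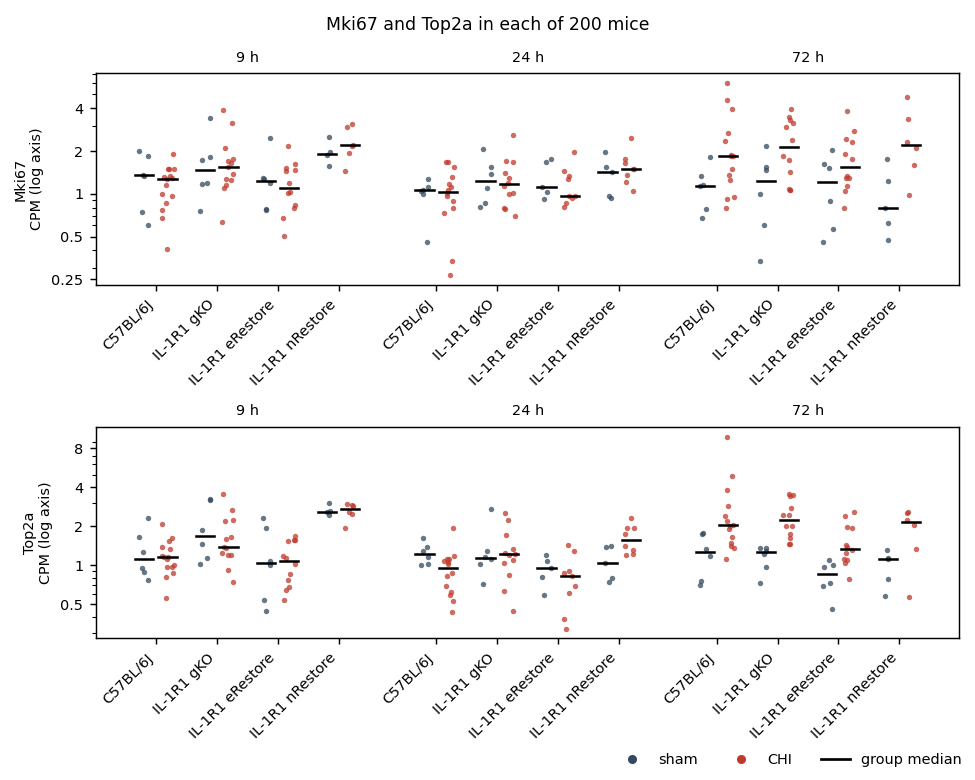
Mki67 and Top2a levels in every mouse (CPM, vertical log axis) by strain and hours after surgery; red points are CHI mice, dark blue points sham mice, and black bars group medians. At 72 h the CHI medians lie above the sham medians in each strain, and the C57BL/6J CHI mouse with 9.85 CPM of Top2a and 6.02 CPM of Mki67 is the highest of all.

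Of the 44 CHI mice at 72 h, 35 had more Top2a and 22 more Mki67 than every sham mouse of their own strain. Both genes were above in 20 mice, Top2a alone in 15, Mki67 alone in 2 and neither in 7. The lowest IL-1R1 nRestore CHI mouse for both genes (replicate 6, 0.5679 CPM of Top2a and 0.981 CPM of Mki67) is 1 of the 2 mice whose sex-linked genes went against the label. The 72 h effect exceeded the 9 h effect by 1.13 on the log2 scale for Top2a (edgeR adjusted p = 3.10e-05) and by 1.02 for Mki67 (edgeR adjusted p = 0.000763). Against 24 h the differences of 0.95 (edgeR adjusted p = 0.0840) and 0.88 (edgeR adjusted p = 0.312) did not pass, and DESeq2 called 1 of them, Top2a. Within single experiments at 72 h, Top2a had 0.98 in eIL-1-38 (edgeR adjusted p = 0.00967), 0.87 in eIL-1-56 (edgeR adjusted p = 0.297) and 0.92 in nIL-1-60 (edgeR adjusted p = 0.725). The fourth experiment, NiL-1-21, held 2 CHI mice and 1 sham mouse at 72 h and was not fitted alone. Mki67 had 0.57, 1.71 and 1.03 in the 3 fitted experiments (edgeR adjusted p = 0.572, 0.297 and 0.780), and 0.87 over the strains without IL-1R1 nRestore (edgeR adjusted p = 0.0559). The direction thus held in the 3 experiments fitted, and the call held in 1 of them for Top2a and in none for Mki67.

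The promoters of both genes are shown because cell cycle genes expressed in G2 and mitosis share the cell cycle homology region (CHR), with the letters TTTGAA, and CCAAT boxes, bound by the MuvB complexes and by NF-Y. In the windows chr7:135716380-135716629 (minus strand, GRCm38.p6) of Mki67 and chr11:99024190-99024439 (minus strand) of Top2a, capitals mark these letters on either strand, so that a match on the other strand reads TTCAAA or ATTGG:
Mki67: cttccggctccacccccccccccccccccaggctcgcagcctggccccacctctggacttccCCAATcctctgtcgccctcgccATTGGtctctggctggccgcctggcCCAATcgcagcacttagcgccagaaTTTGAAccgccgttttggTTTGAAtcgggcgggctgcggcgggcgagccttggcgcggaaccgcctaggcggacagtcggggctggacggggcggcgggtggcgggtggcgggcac
Top2a: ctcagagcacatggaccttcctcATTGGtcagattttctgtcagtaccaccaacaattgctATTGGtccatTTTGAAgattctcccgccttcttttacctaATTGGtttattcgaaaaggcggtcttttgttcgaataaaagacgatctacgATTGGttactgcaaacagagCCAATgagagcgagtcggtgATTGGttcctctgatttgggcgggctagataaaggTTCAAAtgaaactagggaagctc
Each window held the CHR letters 2 times, and 16% of all windows held them at least 1 time. The CCAAT letters occurred 3 times upstream of Mki67 and 6 times upstream of Top2a, and 33.8% of all windows held them. No matches of the 2 motifs overlapped.

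Further genes of mitosis were higher at 72 h, while no gene of the G1 and S phase list was called. Of 17 other G2 and M phase genes tested in the pooled fit, 3 were higher and 0 lower. Cdk1, the mitotic kinase, rose by 1.31 ± 0.29 on the log2 scale (edgeR adjusted p = 0.00548), its partner cyclin B2 gene Ccnb2 by 1.10 ± 0.28 (edgeR adjusted p = 0.0319) and the kinetochore gene Cenpf by 0.82 ± 0.19 (edgeR adjusted p = 0.00823). Named after their values were seen, Aurkb had 1.03 ± 0.34 (edgeR adjusted p = 0.236) and Ccnb1 0.71 ± 0.25 (edgeR adjusted p = 0.301). The median log2 fold change of the list was 0.34, against -0.0034 over all genes tested. The 3 calls fell to 0 without C57BL/6J or without IL-1R1 gKO and to 1 without IL-1R1 nRestore. These fits held fewer mice, and their shares of all genes called were not recorded. Of 23 G1 and S phase genes, 0 were called by edgeR and 0 by DESeq2, with 8 at an unadjusted p under 0.05 in either direction. Such a p was found for 10 of the 17 G2 and M phase genes and for 1374 of all 18408 genes tested. The lack of calls thus does not show that the G1 and S phase genes were unchanged. Of 21 p53-responsive genes, 0 were called by either tool and 0 had an unadjusted p under 0.05. Microglial markers rose at the same time, 4 of 6 higher (among them Csf1r by 0.18, Cx3cr1 by 0.20 and Tmem119 by 0.19 on the log2 scale), where 0.679% of all genes were called higher. Their summed level was 355 TPM (median, 263 to 427) after CHI and 297 TPM (250 to 373) in sham mice. Of 6 astrocyte markers, 1 was called, Gfap, which rose by 0.69. The part of these cell types in the rise of Mki67 and Top2a was not tested.

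Of 23 G1 and S phase genes, 6 were higher and 1 lower at 9 h over the 4 strains, a share near the 23.9% of all genes called in this comparison (12% higher and 11.9% lower). Cdt1, which loads the replicative helicase, rose by 0.92 ± 0.13 (edgeR adjusted p = 1.16e-07), and the helicase subunit genes Mcm4, Mcm7 and Mcm2 rose by 0.30 ± 0.05, 0.23 ± 0.04 and 0.21 ± 0.06. Outside the 4 smallest p-values, Ccne2, encoding cyclin E2, rose by 0.20 ± 0.07 and E2f1 by 0.19 ± 0.06, while the retinoblastoma relative Rbl1 fell by 0.31 on the log2 scale. Cdt1 was also called in C57BL/6J (1.60 ± 0.22) and in IL-1R1 eRestore (0.79 ± 0.17) alone. Named after their values were seen, the kinase genes Cdk4 (-0.06 ± 0.05) and Cdk6 (0.09 ± 0.10), the partners of the D-type cyclins, did not pass. Of 18 G2 and M phase genes, 1 was higher, the kinetochore motor gene Cenpe (0.39 ± 0.13, edgeR adjusted p = 0.0197). The medians at 9 h were 0.05 for the G1 and S phase list and 0.15 for the G2 and M phase list. Without C57BL/6J, 3 genes of the former and 0 of the latter were higher, in a fit with fewer mice whose share of all genes called was not recorded. At 24 h, 0 genes of these lists were called by edgeR or DESeq2.

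**Figure D5:**
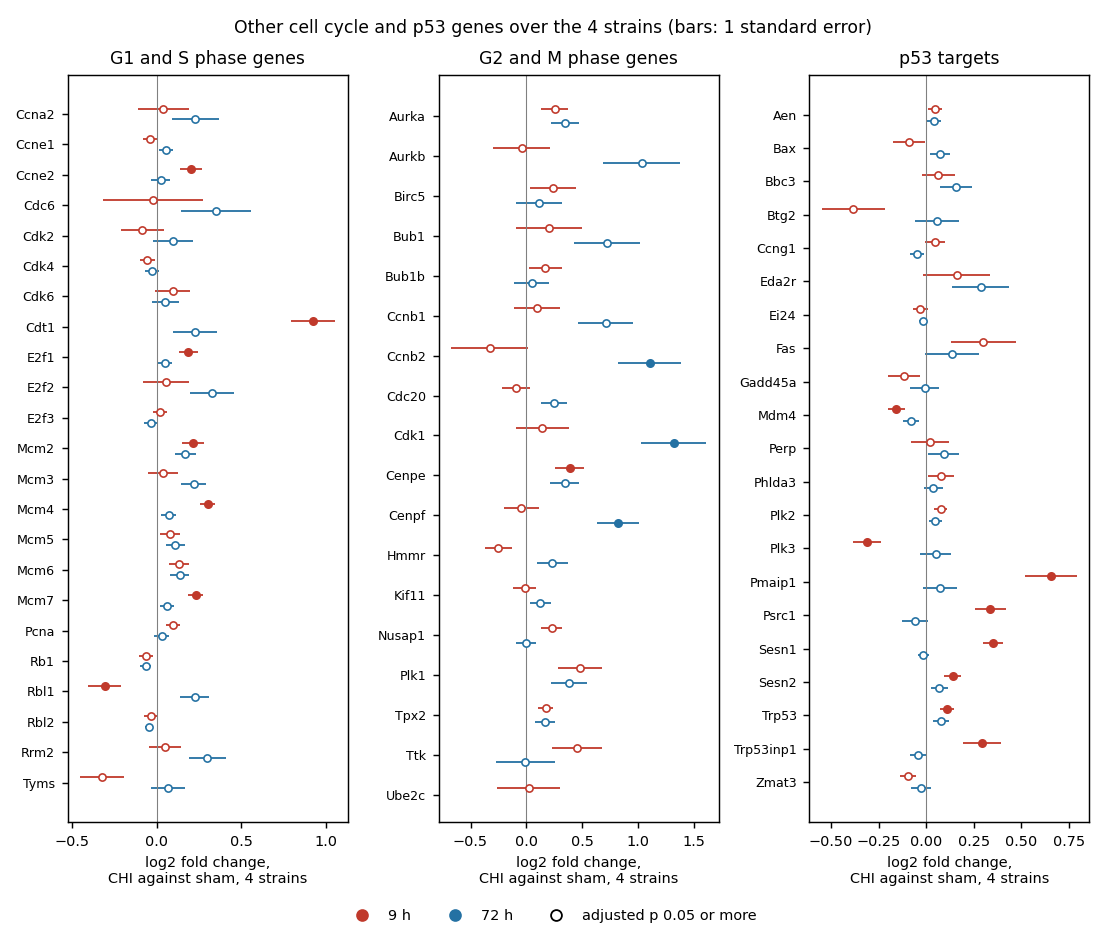
Log2 fold change of CHI against sham in the 4 strains together (horizontal axis) for the genes of the G1 and S phase, G2 and M phase and p53-responsive lists at 9 and 72 h; bars are 1 SE, filled points have an edgeR adjusted p under 0.05. Cdt1 (0.92) leads at 9 h, and Cdk1 (1.31), Ccnb2 (1.10) and Cenpf (0.82) pass at 72 h.

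Several members also differed between times in the sham mice alone. Compared with sham mice at 24 h, those at 9 h had more Cdkn1a (by 0.29 on the log2 scale, edgeR adjusted p = 0.0204), Cdkn1c (0.33, edgeR adjusted p = 0.0232) and Top2a (0.57, edgeR adjusted p = 0.00393), and less Ccnd1 (-0.18, edgeR adjusted p = 0.00663) and Mdm2 (-0.11, edgeR adjusted p = 0.00899). With 44.7% of all genes called in this comparison, 5 of 9 members is near the background. Against 72 h, 6 of 9 members were called (44% of all genes), with Top2a higher at 9 h by 0.69, Mki67 by 0.51, Cdkn1a by 0.45, Cdkn1c by 0.35 and Ccnd3 by 0.25, and Mdm2 lower by 0.10. Between 24 and 72 h, 0 members were called by edgeR (0.0158% of all genes; 0 at an unadjusted p under 0.05 and 0 by DESeq2). The 9 h mice came from experiments of their own, and for C57BL/6J the study's methods place surgery in the morning. Sham mice at 9 h were also younger, with median ages of 3.8 to 4.685 months over the strains. The medians were 4.9 to 5.25 months at 24 h and 5.535 to 5.9 months at 72 h, and age was not in this fit. Top2a of sham mice at 9 h had a median of 2.82 CPM in TM-2-33, 1.03 in eIL-1-76 and 1.13 in eIL-1-80. Time after surgery, time of day, age and experiment thus cannot be told apart in the sham mice.

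Sham mice of the IL-1R1 strains differed little from C57BL/6J in the members, apart from the lower Ccnd2 and Cdkn1a of IL-1R1 nRestore. Cdkn1b was lower by 0.14 on the log2 scale in IL-1R1 gKO (edgeR adjusted p = 0.0218, with 4.33% of genes called) and by 0.16 in IL-1R1 eRestore (edgeR adjusted p = 0.0112, with 4.35% called). Of the 81 differences between a strain's response to CHI and that of C57BL/6J (9 members, 3 strains, 3 times), 0 were called by edgeR and 0 by DESeq2, with 12 at an unadjusted p under 0.05. In these comparisons 0% to 0.0108% of all genes were called, so the 0 does not set the members apart. Between 529 and 1608 of the 18408 to 18741 genes tested had an unadjusted p under 0.05 in each. Of 27 differences between male and female responses, 0 were called by either tool, where 0% to 0.00543% of all genes were called. An unadjusted p under 0.05 was found for 3 of them, Ccnd2 (-0.25 ± 0.08), Ccnd3 (-0.23 ± 0.09) and Cdkn1a (-0.39 ± 0.15) at 24 h, all lower in males. At that time 973 of 18495 genes had such a p.

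Across the 24 group means, the genes most like each member were sought among 20111 genes by Pearson's r of log2(CPM + 0.1), as a description with no test, since the groups share times and experiments. Mki67 and Top2a were among each other's nearest (r = 0.864), next to Cenpf (0.839 with Mki67 and 0.836 with Top2a), Cdk1 (0.803 with Mki67) and Pbk (0.864 with Top2a). Cdkn1a was most like Spns2 (0.958), Anxa11 (0.955) and Zbtb7c (0.949). The nearest gene was Rasa3 for Ccnd1 (0.732), Fastkd5 for Ccnd2 (0.887), Lrrc73 for Ccnd3 (0.905), Psmd9 for Cdkn1b (0.886), Sowahc for Cdkn1c (0.799) and Rnf138 for Mdm2 (0.921).

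Some members share genomic positions with other genes. The antisense gene Dino at Cdkn1a had a median of 3 counts per mouse (at most 18.0). LTO1 overlaps Ccnd1 and Bysl overlaps Ccnd3, and strandedness of the libraries is not given in the sources used here, so reads in the shared stretches cannot be assigned with certainty.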

How the data were processed

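RNA from 1 brain hemisphere of each of 200 perfused mice was sequenced by the authors as poly(A) libraries, paired-end, and run through STAR and Salmon on GRCm39. The deposited files hold estimated counts per gene, not normalized, and TPM, which the authors scaled per length and depth. Strandedness is not given in the sources used here. The estimated counts were rounded to whole numbers (10.8% were not whole). Genes with low counts were left out by a filter with a minimum count of 10. Then edgeR 4.0.16 (R 4.3.3) fitted quasi-likelihood models with TMM factors, sex and age, and strain in fits over 4 strains. P-values were adjusted over all genes tested by the Benjamini-Hochberg method, with a threshold of 0.05. DESeq2 1.42.0, no filter, other covariates, single experiments and left-out mice or strains were alternatives. Log2 values are CHI minus sham unless another difference is named, with 1 SE. CPM used the TMM factors. TPM served for levels across genes and for marker lists. Groups and experiments came from the labels, each mouse is 1 sample, and mice of 1 group were numbered in accession order. The test script was tested on simulated data. Named genes were the members, up to 4 called genes with the smallest p per list, the 3 most alike genes and Il1r1. Further list genes were named outside this rule, after their values were seen. The members and lists were chosen with earlier results of these data known.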

Additional observations from a re-analysis of the deposited data

Results flagged for a closer look

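In 13 cases, over all members and groups of 4 to 10 mice, 1 mouse lay farther from the rest of its group than Dixon's test allows, where chance gives about 1 in 20. For Cdkn1a, the IL-1R1 nRestore CHI mouse replicate 2 at 9 h had 85.3 CPM where the remaining mice had 14.7 to 24.1, and the IL-1R1 gKO sham mouse replicate 1 at 24 h had 10.9 CPM (others 13.7 to 14.9). The same IL-1R1 nRestore CHI mouse had 42.4 CPM of Ccnd1 (others 59.7 to 63.8), and the IL-1R1 eRestore sham mouse replicate 1 at 24 h had 63.8 CPM (others 47.5 to 51.9). For Ccnd2, the IL-1R1 eRestore sham mouse replicate 3 at 24 h had 89.7 CPM (others 58.6 to 66.6). For Ccnd3, the IL-1R1 eRestore sham mouse replicate 3 at 9 h had 20.8 CPM (others 13.0 to 15.1) and the IL-1R1 nRestore sham mouse replicate 2 at 9 h had 10.3 CPM (others 13.6 to 14.2).

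For Cdkn1c, the outlying sham mice were all high. They were C57BL/6J replicate 4 at 9 h with 12.2 CPM (others 4.21 to 6.98), IL-1R1 eRestore replicate 3 at 9 h with 17.5 CPM (others 5.41 to 7.80) and IL-1R1 gKO replicate 4 at 72 h with 10.5 CPM (others 4.65 to 6.52). For Mki67, the C57BL/6J sham mouse replicate 6 at 24 h had 0.461 CPM (others 0.992 to 1.27) and the IL-1R1 eRestore sham mouse replicate 5 at 9 h had 2.45 CPM (others 0.771 to 1.29). For Top2a, the IL-1R1 gKO sham mouse replicate 5 at 24 h had 2.73 CPM (others 0.718 to 1.29).

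The effect of CHI differed between times for 6 members by a test of the difference (edgeR, adjusted over all genes). Between 9 and 24 h it differed by 0.34 on the log2 scale for Ccnd1, -0.20 for Ccnd2 and 1.34 for Cdkn1a. Between 9 and 72 h it differed by 0.21 for Ccnd1, -0.29 for Ccnd2, 1.06 for Cdkn1a, 0.16 for Cdkn1b, -1.02 for Mki67 and -1.13 for Top2a. Times were also run in different experiments, and the part of the experiment in these differences was not tested.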

How the results depend on the processing

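Over 36 counts of members called, 361 alternatives gave 337 counts within 1.5 times of the reported one, and 24 moved. Most of the 36 reported counts were 0, and a 0 that stayed 0 was scored as unmoved, so these totals say little about the calls. Of the fits that left out 1 mouse, 4 moved a count. In C57BL/6J at 9 h, Cdkn1a (1.87 to 2.03) and Ccnd2 (-0.52 to -0.39) kept their call in all 13 alternatives. In IL-1R1 eRestore at 9 h the 2 calls ranged from 1 to 2 when 1 sham mouse was left out, and were 0 without the mice high in choroid plexus markers, a choice made after seeing the data. In IL-1R1 nRestore at 9 h, where 0 were called, 2 were called with no filter on low counts, 1 with DESeq2, 1 with no covariates, 1 with experiment in place of age and 1 without CHI replicate 2, the last chosen after seeing the data. In IL-1R1 eRestore at 24 h, 1 was called with no filter in place of 0. Over the 4 strains at 9 h, 5 calls became 3 without C57BL/6J, 2 in experiment eIL-1-76 alone, 3 in eIL-1-80 and 1 in TM-2-33, where Cdkn1c reversed to 0.081. At 24 h, 1 was called without IL-1R1 nRestore (Cdkn1a). At 72 h the 2 calls became 1 without IL-1R1 nRestore, 1 in eIL-1-38 alone, 0 in eIL-1-56 and 0 in nIL-1-60. For the difference between 24 and 72 h, 1 (Top2a) was called with DESeq2, 1 without age and 1 without IL-1R1 nRestore, in place of 0. In sham mice, 5 calls between 9 and 24 h became 3 without IL-1R1 eRestore, and the 1 call between IL-1R1 gKO and C57BL/6J became 0 with no filter. Single strains and experiments hold fewer mice, and otherwise the cause was not tested. Shares of all genes called were not recorded for the alternatives. Mki67 and Top2a rest on few counts per mouse, which limits what single mice show. Cultures or litters behind the mice are not given in the sources used here. No paired analysis was possible because the labels carry no replicate numbers that tie a CHI mouse to a sham mouse, and the experiment that mice share was fitted in place of age instead.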

Other observations

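Markers of other brain cells moved at 9 h over the 4 strains as well, where 23.9% of all genes were called, 12% higher and 11.9% lower. Of 8 neuroblast markers, 4 were lower and 0 higher after CHI, among them the doublecortin gene Dcx (-0.36 ± 0.07 on the log2 scale, edgeR adjusted p = 2.87e-05) and Dlx6os1 (-0.71 ± 0.06, edgeR adjusted p = 2.80e-16). Of 6 microglial markers, 4 were lower, led by the purinergic receptor gene P2ry12 (-0.62 ± 0.09, edgeR adjusted p = 7.17e-08), and at 72 h, with 0.679% of all genes called higher, 4 of 6 were higher. Among 6 oligodendrocyte precursor markers, the growth factor receptor gene Pdgfra was higher (0.20 ± 0.04) and Gpr17 (-0.63 ± 0.05) and C1ql1 (-0.38 ± 0.09) were lower. Of 6 astrocyte markers, 2 were called at 9 h, Gfap (0.79 ± 0.11, edgeR adjusted p = 3.73e-08) and Aldh1l1 (0.31 ± 0.04, edgeR adjusted p = 1.67e-07), each higher. At 24 h, with 1.48% of all genes called, Gfap was higher (0.49 ± 0.10) and Aldh1l1 lower (-0.15 ± 0.04). At 72 h Gfap was the only 1 of the 6 called.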
